A study of Caenorhabditis elegans with 2 samples.

Results

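The sperm protein genes of Caenorhabditis elegans were examined for chromatin binding of B0019.2, the protein that was precipitated in these experiments. Members were chosen by name in the Ensembl WBcel235 annotation: every protein-coding gene named msp, msd, ssp, ssq, ssr, sss, nspd or spe with a number, and gsp-3 and gsp-4. There were 94 such genes of 19973 protein-coding genes on the 6 nuclear chromosomes. They had 92 distinct names, since ssp-9 and msd-1 each name a pair of gene records. The rule itself uses names only, although it was set with earlier results of these data known.

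The data were peak lists from ChIP-seq (chromatin immunoprecipitation and sequencing), in which DNA bound by a protein is pulled down with an antibody and sequenced. There was 1 group of 2 biological replicates: whole young adult worms, 63.5 h old and synchronised by starving first-stage larvae after bleaching, of strain RW12288. Its B0019.2 gene carries the genome-edited allele st12288, which fuses the protein to TY1, EGFP and FLAG tags, and an anti-GFP antibody was used for the pull-down. The sex of the worms is given as not collected, and untagged or input controls were not analysed here. Germ line and soma were pooled in whole worms, so binding in few cells and weaker binding in many cells cannot be told apart.

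Nematode sperm crawl by assembling the major sperm protein (MSP), which the msp genes encode in many near-identical copies. MSP is also released as a signal that makes oocytes mature and the gonad sheath contract. In hermaphrodites sperm are made in the last larval stage, before the germ line turns to oocytes, and are stored. The spe genes were found through mutants with defective sperm, and their products act from the division of spermatocytes to fusion with the egg.

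Few of the sperm protein genes had a B0019.2 peak, as was also the case for protein-coding genes in general. In the authors' conservative list of reproducible peaks, made from both libraries, 1 of 94 sperm genes (1.06%) had a peak summit within its promoter window. That window covered 1000 bp before the gene start and 200 bp after it, and the gene was spe-39. Over all protein-coding genes the share was 3.84% (766 of 19973). The exact 95% interval of the sperm genes' share, 0.0269% to 5.79%, holds the share over all genes, so a difference was not detectable with 94 genes. This interval reflects counting error alone and treats genes as independent, although neighbours can share a peak. None of the 31 msp genes had a reproducible peak.

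The peak beside spe-39 is shown because it is the only reproducible peak in a window of a sperm gene. It lies at chrV:6784921-6785190 on ce11 (270 bases, plus strand, from the RefSeq WBcel235 genome), and capitals mark the bases within 50 bp of its summit at position 6785056.
peak of spe-39: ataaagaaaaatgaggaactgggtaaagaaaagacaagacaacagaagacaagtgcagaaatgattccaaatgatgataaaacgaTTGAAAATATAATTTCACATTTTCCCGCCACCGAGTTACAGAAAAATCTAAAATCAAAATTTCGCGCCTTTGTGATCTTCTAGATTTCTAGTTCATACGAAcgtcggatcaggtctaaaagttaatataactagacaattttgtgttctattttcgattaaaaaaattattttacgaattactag
The 120 bases before the start of msp-19 (chrIV:5260469-5260588, plus strand), msp-51 (chrIV:5295341-5295460, minus strand), msp-31 (chrII:4916563-4916682, minus strand), msp-152 (chrII:4932907-4933026, plus strand) and nspd-4 (chrII:4842488-4842607, plus strand) are shown because they include the closest copies among the msp promoters and letters that msp and nspd genes share. Each is written along the gene, and capitals mark the letters AGATAA or their reverse complement TTATCT.
before msp-19: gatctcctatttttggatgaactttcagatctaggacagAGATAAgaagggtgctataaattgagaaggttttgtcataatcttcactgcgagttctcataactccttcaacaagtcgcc
before msp-51: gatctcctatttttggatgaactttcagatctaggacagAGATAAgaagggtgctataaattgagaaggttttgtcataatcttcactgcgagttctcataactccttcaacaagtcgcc
before msp-31: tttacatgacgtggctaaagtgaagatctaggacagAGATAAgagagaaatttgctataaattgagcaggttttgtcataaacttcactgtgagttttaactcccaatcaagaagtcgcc
before msp-152: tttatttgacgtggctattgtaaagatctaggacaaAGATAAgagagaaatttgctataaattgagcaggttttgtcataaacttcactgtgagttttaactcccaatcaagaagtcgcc
before nspd-4: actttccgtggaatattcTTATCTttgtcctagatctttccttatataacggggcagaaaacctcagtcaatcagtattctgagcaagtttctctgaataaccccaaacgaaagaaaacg

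SPE-39 is a vesicle-trafficking protein needed to shape the membranous organelles of spermatocytes, and it also acts in endocytosis in other cells. Its gene (WBGene00004975) spans chrV:6785451-6787864 on the plus strand. The peak had a signal value of 122.9 in the conservative list, where it ranked 254 of 900 by that value. Signal values are the authors' own enrichment measure, have no stated scale, and are compared here only within a list. The median of the list was 95.7, with quartiles of 77.2 and 131, so the spe-39 peak lay above the median and below the upper quartile.

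Both libraries held this peak on their own. In replicate 1 its signal value was 59.9, rank 319 of 524 thresholded peaks, and in replicate 2 it was 60.8, rank 252 of 496. The summit of replicate 1 lay 14 bp from that of the conservative list, and the summit of replicate 2 lay 4 bp from it. In each replicate list spe-39 was likewise the only sperm gene with a summit (1 of 94), where the shares over all genes were 2.61% for replicate 1 and 2.44% for replicate 2. The same peak came from the other deposited list of both libraries, with again 1 of 94 sperm genes, against 3.79% of all genes.

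The peak lies between a divergent gene pair. Its summit is 395 bp upstream of the start of spe-39 but 153 bp upstream of the start of spn-4 (WBGene00004984, chrV:6783187-6784903, minus strand), which is transcribed the other way. spn-4 encodes an RNA-binding protein that the oocyte supplies to the early embryo. When each summit was given to its nearest gene start alone, the peak went to spn-4 and 0 of 94 sperm genes had one, against 434 of all protein-coding genes. Which of the genes the binding concerns was not tested.

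**Figure D1:**
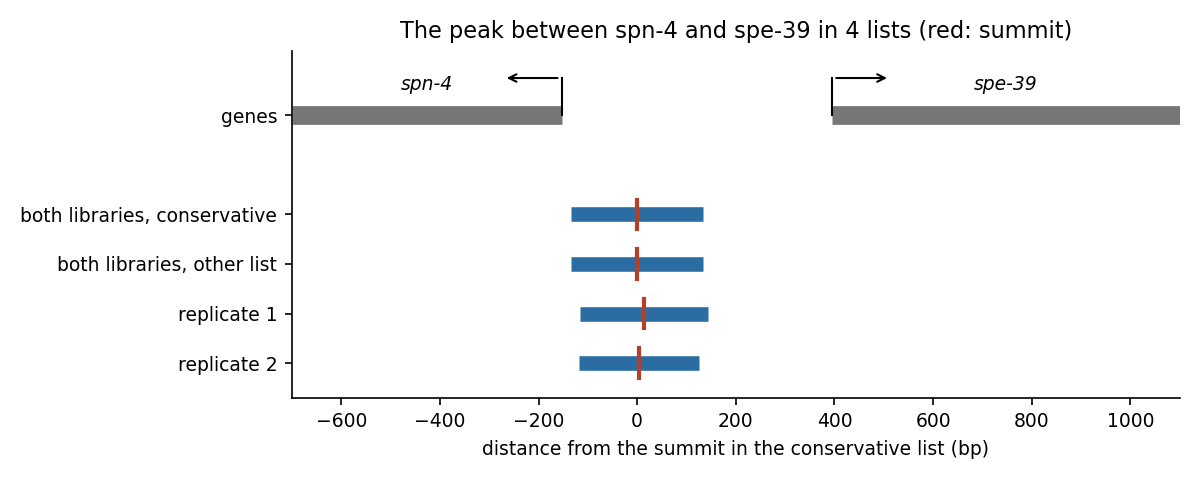
The peak between spn-4 and spe-39 in 4 thresholded lists, drawn as blue bars with red summits, against distance from the summit of the conservative list in bp; grey bars are the genes and arrows their direction. The summits of all 4 lists lie within 14 bp of each other, nearer to the start of spn-4 (153 bp) than to that of spe-39 (395 bp).

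The spe-39 peak was poorer in G and C than most. Within 50 bp of its summit 32.7% of the bases were G or C, whereas the median over the 900 peaks of the list was 47.5% and the quartiles 40.6% and 52.5%. Reading the sequence above, 2 strings of letters were picked after they were seen, and each was then counted within 50 bp of the summit on both strands. TTTCCCGC stands 30 to 23 bases before the summit, and it or its reverse complement GCGGGAAA was present at 25 of the 900 peaks (2.78%) and at 363 of the 54691 remaining candidates (0.664%). TTTCGCGC stands 9 to 16 bases after the summit, and it or GCGCGAAA was present at 53 of the 900 peaks (5.89%) and at 283 of the remaining candidates (0.517%). These counts are a description of letters, chosen from this peak, which is itself among those counted.

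The authors also deposited the candidates from which the reproducible peaks were taken, 55591 regions ranked by signal with an irreproducible discovery rate (IDR), a measure of how poorly ranks agree between inputs. A candidate shows that a region was ranked, not that it was bound. Of the sperm genes, 47 of 94 (50%) had a candidate in the window, against 51.9% of all protein-coding genes (10361 of 19973). The interval of the sperm genes' share ran from 39.5% to 60.5% and held the share over all genes. Of the 47 with a candidate, 1 (2.13%) had a reproducible peak, against 7.39% of all genes with a candidate. That interval, 0.0539% to 11.3%, again held the share over all genes.

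The candidates of the sperm genes were about as strong as those of other genes. The strongest candidate in each window had signal values of 16.0 to 122.9 with a median of 32.5 over the 47 sperm genes, and a median of 32.9 over all genes with a candidate. Genes with a reproducible peak had a median of 107. Windows of the sperm genes held 50 distinct candidates. Of these, 4 lay in the windows of several sperm genes at once, 9 genes in all: msp-77, ssp-32 and sss-1 share one, as do msp-10 and msp-81, ssp-9 and ssq-2, and msp-142 and msp-63.

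**Figure D2:**
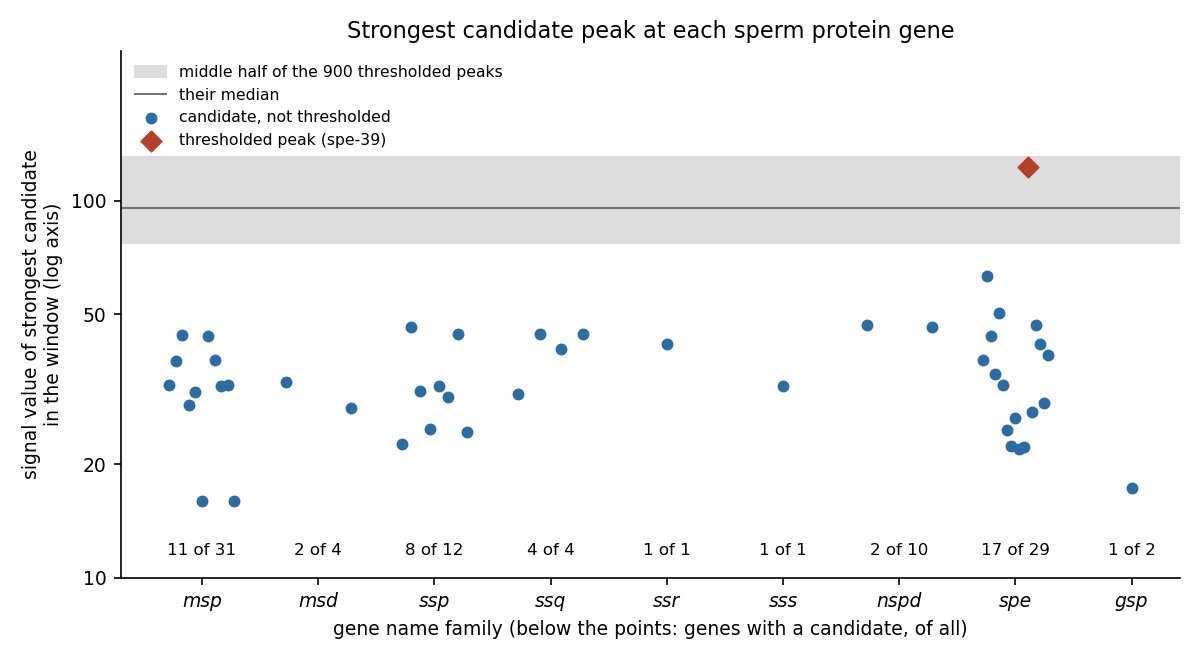
The signal value (log axis) of the strongest candidate in the window of each sperm gene, by name family, 1 point a gene; the grey band spans the quartiles of the 900 reproducible peaks and the line is their median. Of the 47 genes with a candidate, spe-39 (red diamond, 122.9) alone reaches the band, and the next, spe-5, stands at 63.3.

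Separate candidate lists of the replicates gave similar shares. In replicate 1, 48 of 94 sperm genes (51.1%) had a candidate against 48.5% of all genes, and in replicate 2, 37 (39.4%) against 44%. At 23 sperm genes the window held a candidate of each replicate, and at 18 of them (19.1% of the 94) candidates of both replicates overlapped by at least 1 base, against 23.3% of all genes. At 32 sperm genes neither replicate had a candidate.

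The msp genes, which encode the MSP subunits themselves, had a candidate in 11 of 31 windows, where the share over all genes was 51.9%. Replicate 1 gave 16 and replicate 2 gave 7, where the shares over all genes were 48.5% and 44%. No family was tested against these shares. At 4 msp genes both replicates had a candidate, and these overlapped at msp-59 and msp-77 but not at msp-10 and msp-40. msp-32 had the strongest, 44.1 in the list of both libraries and 21.7 in replicate 1, with none in replicate 2. Of the 50-base stretches in the msp-32 window, only 37.3% occur once in the genome. msp-33, named after its values were seen, had 37.4 in replicate 1 and none in replicate 2 or in the list of both libraries. The candidates of msp-32 and msp-33 were thus absent from replicate 2. Of the 4 msd genes, named for an MSP domain, 2 had a candidate, the higher at msd-1 (WBGene00009680), with 33.0 in the list of both libraries and 20.4 in replicate 1, and none in replicate 2.

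The ssp, ssq, ssr and sss genes are small sperm-specific families. Over all genes 51.9% had a candidate in the window. Of the 12 ssp genes 8 had one, led by ssp-9 (WBGene00006040) at 46.2, with 28.3 in replicate 1 and none in replicate 2. All 4 ssq genes had one, led by ssq-4 at 44.4, with 20.0 in replicate 1 and 24.1 in replicate 2. ssr-2, the lone sperm gene on the X chromosome, had 41.7, with 15.4 in replicate 1 and 23.4 in replicate 2. sss-1 had 32.3, with 13.8 in replicate 1 and 17.2 in replicate 2. All of these values lie below the lower quartile of the reproducible peaks.

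Among the 10 nspd genes, a nematode-specific peptide family, 2 had a candidate, both of them in each replicate as well. The share of all genes with a candidate was 51.9%, and a difference was not tested. nspd-4 had 46.7 in the list of both libraries, 33.5 in replicate 1 and 19.6 in replicate 2, its summit 183 bp downstream of the start. Of the 50-base stretches in the nspd-4 window, 51.2% occur once in the genome. nspd-9 had 46.3 in the list of both libraries, and the candidates that overlap it had 22.1 in replicate 1 and 21.2 in replicate 2. The remaining 8 nspd genes had none in the list of both libraries.

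The spe genes had candidates in 17 of 29 windows, 14 in replicate 1 and 16 in replicate 2, with overlapping candidates of both replicates at 8. Their roles were assigned after these values were seen, so the counts by role are a description, and other groupings would change them. For instance, spe-6 was left outside the named roles. It had no candidate in the list of both libraries or in replicate 2, and 38.6 in replicate 1. Over all genes 51.9% had a candidate and 23.3% had overlapping candidates of both replicates. Genes for the organelles and divisions of spermatocytes had a candidate in 7 of 8 windows, and overlapping candidates of both replicates in 5. spe-5, which encodes a B subunit of the vacuolar proton pump, had the strongest candidate short of the threshold, 63.3 at rank 1317 and an IDR of 0.0290, with 33.7 in replicate 1 and 27.0 in replicate 2. Its summit lay 44 bp upstream of the start. spe-15, which encodes a myosin that parts spermatids from the residual body, had 50.4, with 39.6 in replicate 1 and 16.7 in replicate 2.

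Genes for sperm surface or secreted proteins needed at fertilization had a candidate in 7 of 8 windows, and overlapping candidates of both replicates in 2. The lowest signal value among them was 21.9 at spe-36. In the spe-8 pathway, which turns round spermatids into crawling sperm, 2 of 6 genes had a candidate, and of the remaining 7 spe genes 1 did. With 6 to 8 genes a role, these counts were not tested against the 51.9% and 23.3% of all genes.

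At spe-44, gsp-3 and gsp-4 there was no reproducible peak. Over all genes 3.84% had a reproducible peak and 51.9% a candidate, and so few genes cannot be compared with these shares. spe-44, which encodes a transcription factor that switches on sperm genes, had no candidate in the list of both libraries or in either replicate. gsp-3 and gsp-4 encode sperm-specific PP1 phosphatases that act in meiosis and sperm motility. gsp-3 had no candidate in any of those lists. gsp-4 had 17.3 in the list of both libraries, 976 bp upstream, and none in either replicate.

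Just short of the threshold, spe-5 was the only addition. At an IDR of 0.05 or less, a cut-off chosen after seeing the data, 2 of 94 sperm genes had a summit, spe-39 and spe-5, against 5.22% of all genes. Among the strongest candidates of each window, the next lowest IDRs were 0.231 at ssq-2 and 0.283 at spe-8. Of the next strongest by signal value, nspd-9 had an IDR of 0.313, nspd-4 of 0.357 and spe-15 of 0.748.

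Beyond the window, reproducible peaks lay at similar distances from sperm genes and from genes in general, which was not tested. The median distance from gene start to nearest summit was 42904.5 bp for sperm genes, with quartiles of 15333.75 and 79014 bp, and 46695 bp for all genes, with quartiles of 16528 and 106829 bp. Within 5 kb lay a summit for 8 sperm genes (8.51%) against 10.7% of all genes, and within 50 kb for 54 (57.4%) against 52.0%. No reproducible summit lay inside a sperm gene. The same count was not made over all genes, so whether this is particular to sperm genes is not known. The medians moved with the list, and the order of the groups changed in 1 alternative: the other deposited list gave 58799 bp for sperm genes and 50995 bp for all genes.

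**Figure D3:**
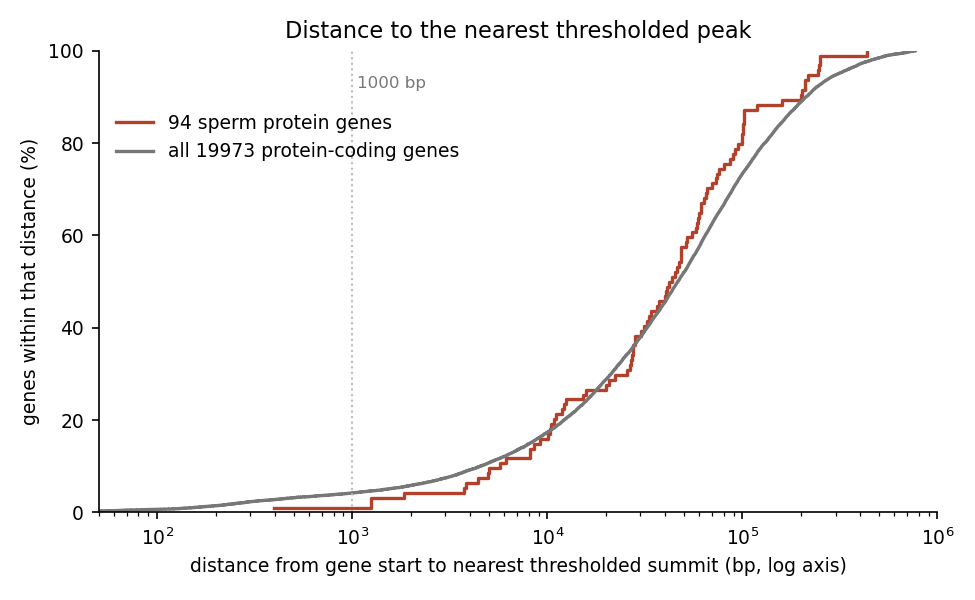
The percentage of genes (vertical axis) whose start lies within a given distance in bp (log axis) of the nearest reproducible summit, for the 94 sperm genes (red) and all 19973 protein-coding genes (grey). At 5 kb the sperm genes lie under all genes (8.51% against 10.7%), and at 50 kb above them (57.4% against 52.0%).

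Of the 8 sperm genes with a summit within 5 kb, spe-39 was the only one with it in the window. A window of 2000 bp upstream and 500 bp downstream gave 3 of 94 sperm genes against 992 of all genes, and spe-54, with a summit at 1249 bp, was among those added. The peak near spe-54 (signal value 79.0) lay in no window of 1000 and 200 bp. Those near spe-12, ssp-16, spe-18, msp-19 and nspd-1 were 1842 to 4948 bp away, and each lay in the window of another gene or pseudogene.

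The position of sperm genes in the genome was uneven. Of the 94, 45 were on chromosome IV, 21 on I, 16 on II, 7 on V, 4 on III and 1 on X, and the msp genes fell into 18 on IV and 13 on II. Shares of all genes with a reproducible peak differed between chromosomes, from 0.439% on X to 7.35% on III. Weighted to the chromosomes of the sperm genes, the share over all genes would be 4.48%, which the interval of the sperm genes' share also holds.

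Repeated sequence was common in the windows of sperm genes. A 50-mer was counted as unique where it occurred once on either strand of the reference genome, and reads from other 50-mers can map to several places. The median share of unique 50-mers per window was 92.7% over the sperm genes, with a range of 29.6% to 100%, and 100% over all genes. Windows under 90% unique made up 42 of 94 (44.7%) for sperm genes and 10.4% for all genes. By family the medians were 85.2% for msp, 86.4% for nspd and 100% for spe genes.

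Among windows under 90% unique, 19 of 42 sperm genes (45.2%) and 42.3% of all genes had a candidate. A reproducible summit was in 0 of 42 of these sperm gene windows and in 4.24% of these windows over all genes. Among windows at least 90% unique, 28 of 52 sperm genes (53.8%) and 53.0% of all genes had a candidate, and 1 of 52 (1.92%) and 3.79% had a reproducible summit. With 42 and 52 sperm genes, counts of 0 and 1 are too few to compare with these shares. How the authors treated reads that map to several places is not given in the sources used here, and its part in the counts was not tested.

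**Figure D4:**
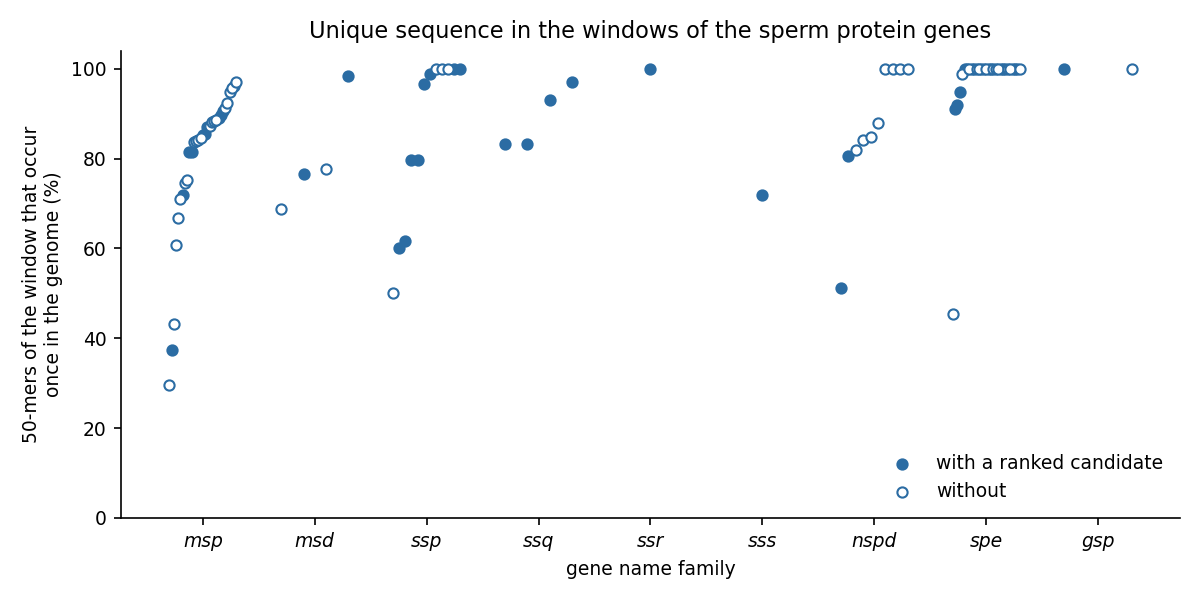
The percentage of 50-mers in the promoter window that occur once in the genome, for each of the 94 sperm genes by family, filled where the window held a ranked candidate. Most spe genes lie at or near 100%, while msp genes spread from 29.6% to 97.1%, and filled and open points mix at all levels.

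Many msp promoters have a close copy, as the sequences above show, while identity by position was low over most pairs. Over all 465 pairs of msp genes the median identity of the 120 bases, compared without gaps, was 36.7%. Over the 120 bases before the start, msp-19 and msp-51, on opposite strands of chromosome IV, were identical, and msp-31 and msp-152 on chromosome II differed at 6 bases (95% identity). Compared position by position, msp-19 and msp-31 had 29.2% identity. That measure misses shared letters at unlike distances from the start, such as AGATAA, 76 bases before msp-19 and 79 before msp-31. Low values therefore do not show that the promoters are unrelated. The median identity of an msp gene with its best matching msp gene was 89.2%, the lowest was 34.2%, and 14 of 31 had a match of at least 90%.

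The letters AGATAA, a form of the site that GATA transcription factors bind, were searched on both strands in the 250 bp before each start. They were present at 32 of 94 sperm genes (34.0%), against 18.7% of all genes and 13.3% of genes with a reproducible peak. The matches were concentrated in 2 families, 19 of 31 msp and 7 of 10 nspd genes. The spe genes with them were spe-39, spe-41 and spe-44, and the others were ssp-32, ssp-35 and sss-1. All 19 msp matches stood on the strand of the gene, 74 to 79 bases before its start, where 126 of all genes (0.631%) have a match. In nspd genes the matches stood on the other strand, the nearest 93 to 109 bases before the start.

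A longer string around these letters was common to both families. It was read from msp-19 at chrIV:5260495-5260513 (plus strand), and its capitals mark AGATAA.
block before msp-19: agatctaggacagAGATAA
With up to 1 mismatch, this 19-base block was present on either strand in the 250 bp before 15 of 31 msp genes, always on the strand of the gene. It was present before 4 of 10 nspd genes (nspd-2, nspd-4, nspd-5 and nspd-9), always on the other strand, and before 8 of the 19879 genes that are not in the group. Among those 8 are the gene records named Y59E9AR.7, which the name rule does not cover. Their match is exact, on the strand of the gene and 76 bases before the start, as at msp-19. The string was chosen after the sequences were read. Of all 27 genes with it, 10 had a ranked candidate and 0 had a reproducible peak, where the shares over all genes were 51.9% and 3.84%. A count of 0 of 27 is near that general share. Near-identical gene copies are among them, so these counts are not of independent genes.

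A start within 1000 bp of a divergently transcribed protein-coding gene was found for 30 sperm genes (31.9%), against 17.7% of all genes and 49.5% of genes with a reproducible peak. spe-39 was one of the 30, and the remaining 29 had no reproducible peak in the window. Over all protein-coding genes, 379 of the 3539 with such a neighbour had one, and a difference was not tested.

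Gene lists of related function were set beside the sperm protein genes. They were chosen with earlier results of these data known, so their counts are given side by side only. The exact intervals do not allow for that choice, and no list was tested against another. Sperm genes outside the name rule, such as fer-1 and smz-1, had a reproducible peak at 0 of 14. mib-1, a ubiquitin ligase gene of that list, had one in the other deposited list (signal value 76.6) and in replicate 2 (49.2). Regulators of the sperm fate, such as fog-1, fog-3 and elt-1, had one at 0 of 12. With lists this short a share of up to 23.2% for the sperm list and 26.5% for the regulators lies within the exact intervals.

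On the oocyte side of fertilization, the list of MSP signalling in the gonad had a reproducible peak at 2 of 15 genes (13.3%, exact interval 1.66% to 40.5%). These were oma-1 (83.3) and oma-2 (75.9), which encode zinc finger proteins of oocyte maturation. The thresholded list of replicate 1 held 1 of them, oma-1, and that of replicate 2 held neither. The list of the egg surface and eggshell had one at 8 of 15 genes (53.3%, exact interval 26.6% to 78.7%), against 1.06% of the sperm genes and 3.84% of all genes. Its strongest were egg-4 (697, the highest signal value of the list), cpg-1 (342), egg-5 (307) and chs-1 (154). egg-4 and egg-5 encode inactive phosphatases of the oocyte cortex, cpg-1 a chondroitin proteoglycan of the eggshell and chs-1 the chitin synthase.

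**Figure D5:**
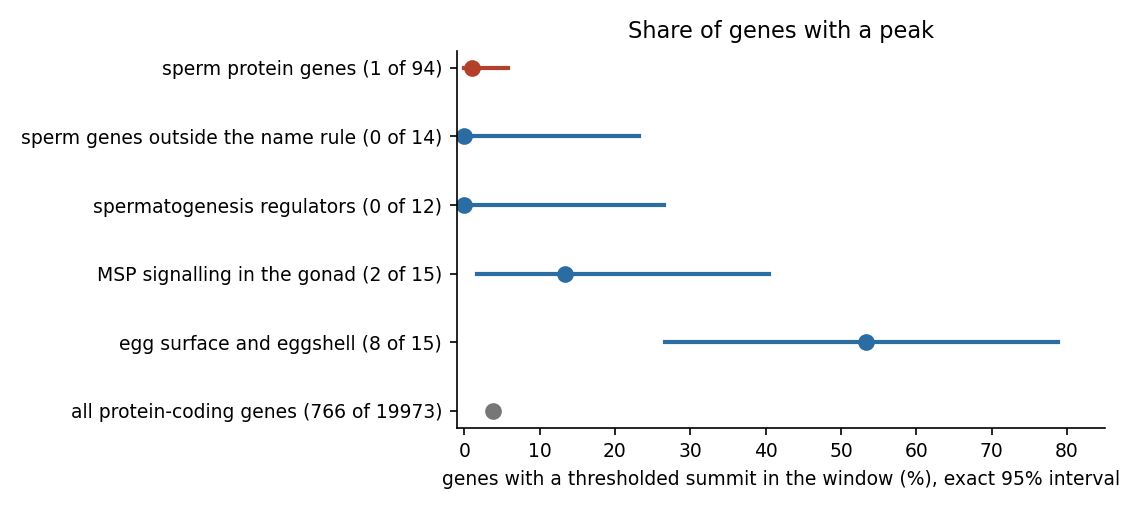
The percentage of genes with a reproducible summit in the promoter window (points) and its exact 95% interval (bars) for the sperm protein genes (red), 4 lists of related function (blue) and all protein-coding genes (grey). The sperm genes stand at 1.06% and the egg surface and eggshell list at 53.3%, and the interval of the sperm genes holds the 3.84% of all genes. The lists were chosen with earlier results known, which the intervals do not allow for.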

How the data were processed

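ChIP-seq peak lists of B0019.2 from 2 libraries of whole worms (1 group) were used, on ce11, per the labels. Worms were 63.5 h old and chromatin was sonicated to 200 to 800 bp, per the labels. The authors deposited ranked and thresholded lists for each library and for both, with a signal value per peak of no stated scale. The deposited ranked lists also hold −log10 of the IDR, and every thresholded peak reached 2 there (an IDR of 0.01). The reverse did not hold: of the 55591 candidates, 88 reached 2 without being among the 900 thresholded peaks. These 88 count among the remaining candidates above, and why they were left out is not given. No aligner or peak caller is named in the sources used here. In the ranked lists of both libraries, 16 columns of per-input values were left aside. Without counts the depth is unknown.

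Genes came from Ensembl release 115 (WBcel235, the coordinates of ce11) and sequences from RefSeq WBcel235. A summit was assigned to each gene whose window held it. Divergent neighbours lay within 1000 bp. With 1 group there was no test between conditions, and no set test was made; shares carry exact Clopper-Pearson 95% intervals. Members and lists were chosen with earlier results of these data known. Named were members with a reproducible summit, the strongest candidate per family, the 5 strongest, gsp-3, gsp-4, spe-44, up to 4 bound genes per list and genes sharing a member's summit; other genes were named after their values were seen, and 1 member that the rule names is not reported here. Assignment and repeat counts were checked on simulated data. Tools were scipy 1.17.1, pandas 2.3.3, numpy 2.4.6 and matplotlib 3.10.9 under Python 3.11.15.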

Additional observations from a re-analysis of the deposited data

How the results depend on the processing

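The count of 1 of 94 sperm genes with a reproducible summit was 1 as well with the other deposited list, either replicate alone, the upper 450 peaks by signal value, a window of 500 and 100 bp, every transcript start, overlap of the peak interval, and without the msp genes. It was 3 with a window of 2000 and 500 bp, 0 with the nearest gene start, and 2 at an IDR of 0.05 or less, which was chosen after seeing the data. For all protein-coding genes the count of 766 was 487 to 521 when a replicate was left out, 491 with the upper 450 peaks and 434 with the nearest gene start. Sperm genes with a candidate numbered 47, against 21 with a window of 500 and 100 bp and 70 with 2000 and 500 bp. Candidates in these other windows were not counted over all genes, so the change is not a trait of sperm genes. The median distance of 42904.5 bp was 58799 bp with the other deposited list, 62316 to 67722.5 bp when a replicate was left out and 75875.5 bp with the upper 450 peaks; the cause was not tested. For all genes these medians were 46695 bp, 50995 bp, 79889 to 85985 bp and 90422 bp. The median share of unique sequence was 89.4% with 36-mers and 100% with 100-mers. No paired analysis was possible because there is 1 group of 2 replicates. With 94 genes, shares of up to 5.79% cannot be told from the observed one, and no depth is known.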
